A study of Mus musculus with 6 samples.

Results

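The replication-dependent histone genes were described by type (H1, H2A, H2B, H3 and H4) in plasmacytoid dendritic cells (pDCs) grown with and without deletion of *Gfi1* and *Gfi1b*. Members were the probe sets that the array annotation pairs with exactly 1 gene symbol, where that symbol or its older form names a replication-dependent histone gene (Hist1h to Hist4h). They were 31 probe sets for 31 genes, of 21640 single-symbol probe sets for 19937 genes on the array. By type they held 5 H1, 5 H2A, 11 H2B, 3 H3 and 7 H4 genes.

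Bone marrow came from 3 C57BL/6 mice of genotype *Gfi1* f/f; *Gfi1b* f/f; *ERCre* and was cultured in 25 ng/ml Flt-3L, the cytokine that drives dendritic cell differentiation, and each culture was divided. The untreated part gave the WT array of that mouse and the part treated with 1 µM tamoxifen, which activates the Cre fusion protein, gave its KO array, so that there were 3 WT and 3 KO arrays. All 6 therefore carried the floxed alleles and Cre, no tamoxifen-treated control without Cre or floxed alleles was among them, and the ages of the mice were not given. B220+ CD11c+ cells were sorted, and 200 ng of total RNA went onto Affymetrix Mouse Gene 1.0 ST arrays. The study saw by genotyping PCR that deletion was incomplete in such cultures. The probe sets of *Gfi1* and *Gfi1b*, which summarise whole transcripts, were not used here to check it. Values are intensities on a linear scale, in arbitrary units, and differences are log2(KO) minus log2(WT).

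Histones package DNA: H2A, H2B, H3 and H4 form the core around which DNA winds, and H1 binds the linker between cores. The replication-dependent genes lie in clusters and are transcribed mostly in S phase, when new DNA needs histones, under the coactivator NPAT. Their mRNAs usually end in a stem-loop bound by SLBP in place of a poly(A) tail, although some, *H1f2* and *H2bc21* among them, are also known to give polyadenylated mRNA outside S phase. The sources used here do not state how the labelling reaction was primed, which bears on how well mRNA without a poly(A) tail was copied.

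Of the members, 23 lie on chromosome 13 within 21722044 to 23934913 (the Hist1 cluster), 4 on chromosome 3 within 96221072 to 96270192, 3 on chromosome 11 and 1 on chromosome 6 (RefSeq, GRCm38.p6). The assembly names 70 such genes. The other 39 are 38 genes that the array covers only by probe sets shared between several histone genes, and 1 with no probe set here. Probe sets of 1 symbol are therefore a selected set: the array had them for 11 of 19 H2B genes but for 5 of 20 H2A and 3 of 12 H3 genes. Most core histone genes of 1 type have similar coding sequences, and all H4 genes encode the same protein. Probes of single-symbol sets may still bind mRNA of a paralog, so that the name of a gene below is that of its probe set.

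Promoters were found for 26 of the 31 members among the RefSeq sequences. The 120 bases before the annotated start of 7 genes are shown 5′ to 3′ on the strand of the gene, for examples of H1, H2A, H2B and H4 genes described in the results and, as a contrast, for *H1f2*, which was low in both cultures of mouse 1. Capitals mark matches, on either strand, to 5 short motifs described for histone promoters: the octamer ATTTGCAT, the CCAAT box, the TATA box as TATAAA, the core of the H4 site bound by HINFP as GGTCCG, and AAACACA as the AC box of H1 genes. Matches in these windows did not overlap each other.
H1f5 (chr13:21780626-21780745, minus strand): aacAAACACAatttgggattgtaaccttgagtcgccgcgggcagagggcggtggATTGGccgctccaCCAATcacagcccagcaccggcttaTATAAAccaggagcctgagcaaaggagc
H1f2 (chr13:23738687-23738806, plus strand): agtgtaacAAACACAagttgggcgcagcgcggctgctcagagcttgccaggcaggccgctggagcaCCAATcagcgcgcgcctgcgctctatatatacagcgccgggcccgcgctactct
H2ac4 (chr13:23750968-23751087, plus strand): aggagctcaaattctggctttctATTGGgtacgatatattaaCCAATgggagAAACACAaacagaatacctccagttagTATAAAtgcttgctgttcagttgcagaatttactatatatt
H2bc3 (chr13:23746614-23746733, plus strand): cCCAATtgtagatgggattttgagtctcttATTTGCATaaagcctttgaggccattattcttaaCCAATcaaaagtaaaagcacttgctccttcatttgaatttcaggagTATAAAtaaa
H2bc14 (chr13:21721924-21722043, plus strand): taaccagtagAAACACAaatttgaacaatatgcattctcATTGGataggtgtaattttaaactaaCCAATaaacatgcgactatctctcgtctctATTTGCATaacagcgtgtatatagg
H4c3 (chr13:23698459-23698578, minus strand): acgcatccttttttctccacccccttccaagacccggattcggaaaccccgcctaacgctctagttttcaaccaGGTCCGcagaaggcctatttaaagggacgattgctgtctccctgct
H4c4 (chr13:23581448-23581567, plus strand): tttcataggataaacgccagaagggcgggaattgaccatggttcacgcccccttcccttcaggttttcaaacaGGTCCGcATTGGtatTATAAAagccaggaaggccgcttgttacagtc

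The types carried different letters in the 250 bases before the start. The octamer was found in 4 of 5 H2A and 5 of 8 H2B promoters and in none of the 13 of H1, H3 and H4, against 1.61% of the promoters of all 27025 genes. In *H2ac4* it lay farther from the start than the bases shown. GGTCCG was in 5 of 6 H4 promoters and in 1 of 8 of H2B, against 6.82% of all genes. AAACACA was in 4 of 5 H1 promoters and in 2 each of H2A and H2B, against 6.22%. CCAAT was in all 5 H1, all 5 H2A and all 8 H2B promoters but in 2 of 6 of H4, against 34.5%, and TATAAA was in 15 of 26 promoters of any type, against 13%. The windows of *H2ac8* and *H2bc8* overlap on opposite strands, as do those of *H2ac1* and *H2bc1*. Each pair shares 1 octamer that is counted under both H2A and H2B, and *H2ac1* and *H2bc1* also share their AAACACA. These counts are therefore not all of separate sites. A match is a string of letters and no shown binding site. *H1f5* and *H1f2*, whose differences within mouse 1 were 1.82 and 0.37 on the log2 scale, both held AAACACA and CCAAT.

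The sorted cells were checked against pDC markers. Of 13 listed pDC genes, 12 had a probe set, and all 12 were above 61.5, the 95th percentile of 1208 probe sets for olfactory and vomeronasal receptors, which stand here for genes not used in blood cells. The summed intensity of the 12 was 48144 (WT) and 46296 (KO) in mouse 1, while mice 2 and 3 gave 25681 and 21497 (WT) and 33069 and 30307 (KO). Most neutrophil, stromal, macrophage and B lineage markers were instead lower in mouse 1. The 8 neutrophil genes summed to 1299 and 490 in mouse 1 (WT and KO), and in mice 2 and 3 to 8280 and 9494 in WT and 2312 and 4197 in KO arrays, a sum carried mostly by *S100a8* and *S100a9*. Within the list *Mpo* and *Elane* were higher in KO on the mean, by 0.44 and 0.12. All 6 stromal genes summed to 429 and 412 in mouse 1, to 4098 and 4588 in WT and 1354 and 1501 in KO arrays of the other mice. For 8 macrophage and 5 B lineage genes the WT array of mouse 1 was lower than the other WT arrays by a median of 2.86 and 2.89 on the log2 scale. It was at least 2-fold lower for 5 of the 8 and 4 of the 5. *Vpreb1* of the B lineage list went the other way, with mouse 1 higher by 0.48 in WT and a KO minus WT difference of 0.21. KO minus WT, the medians were 0.28 for the pDC markers, −1.46 for the neutrophil, −0.95 for the stromal, −0.48 for the B lineage and −0.29 for the macrophage genes, and they were 0.17 for 5 T and NK cell, 0.44 for 3 stem and progenitor and −0.04 for 5 conventional dendritic cell genes. The arrays of mouse 1 thus stood apart in both cultures, and values are therefore given by mouse. In sorted cells, a larger number of cells in S phase and more histone mRNA per cell cannot be told apart.

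Across the 31 members the median log2 difference was 0.33, with medians of 0.47, −0.02 and 0.35 within mice 1, 2 and 3. Without both arrays of mouse 1 it was 0.21, and by type it was then 0.08 for H1, 0.23 for H2A, 0.19 for H2B, −0.01 for H3 and 0.25 for H4. The median of all 21640 probe sets was 0.03 (0.04 without mouse 1), and that of the receptor probe sets, which are background, was 0.14. Of the 31, 29 (93.5%) had a higher mean log2 intensity in KO than in WT pDCs, against 55.9% of all probe sets. None passed limma's test at an adjusted p of 0.05 (smallest adjusted p = 0.70), as for 0% of all probe sets. At an unadjusted p under 0.05 the count was also 0 in either direction, where 5.14% of all probe sets were higher and 1.9% lower. With the mouse as a block, 12 members were higher at an unadjusted p under 0.05, 38.7% of the members against 7.46% of all probe sets, and 0 were lower, against 5.99%. None of these 12 passed after adjustment over all probe sets (smallest adjusted p = 0.29).

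In counts of arrays, 13 members (41.9%) had KO above WT within each of the 3 mice, against 21.3% of all probe sets. All KO arrays lay above all WT arrays for 4 members (12.9%), against 10.2%, so this share was near the background, and for none did they lie below, against 4.65%. For these 4, *H2ac4*, *H2ac15*, *H2bc3* and *H2bc14*, an exact two-sided permutation test gave p = 0.1, the smallest that 3 arrays against 3 allow. Mice 1, 2 and 3 had 29, 15 and 27 members higher in KO, against 49.8%, 52.4% and 56.2% of all probe sets. Thus in mouse 2 about as many members were lower as higher.

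**Figure D1:**
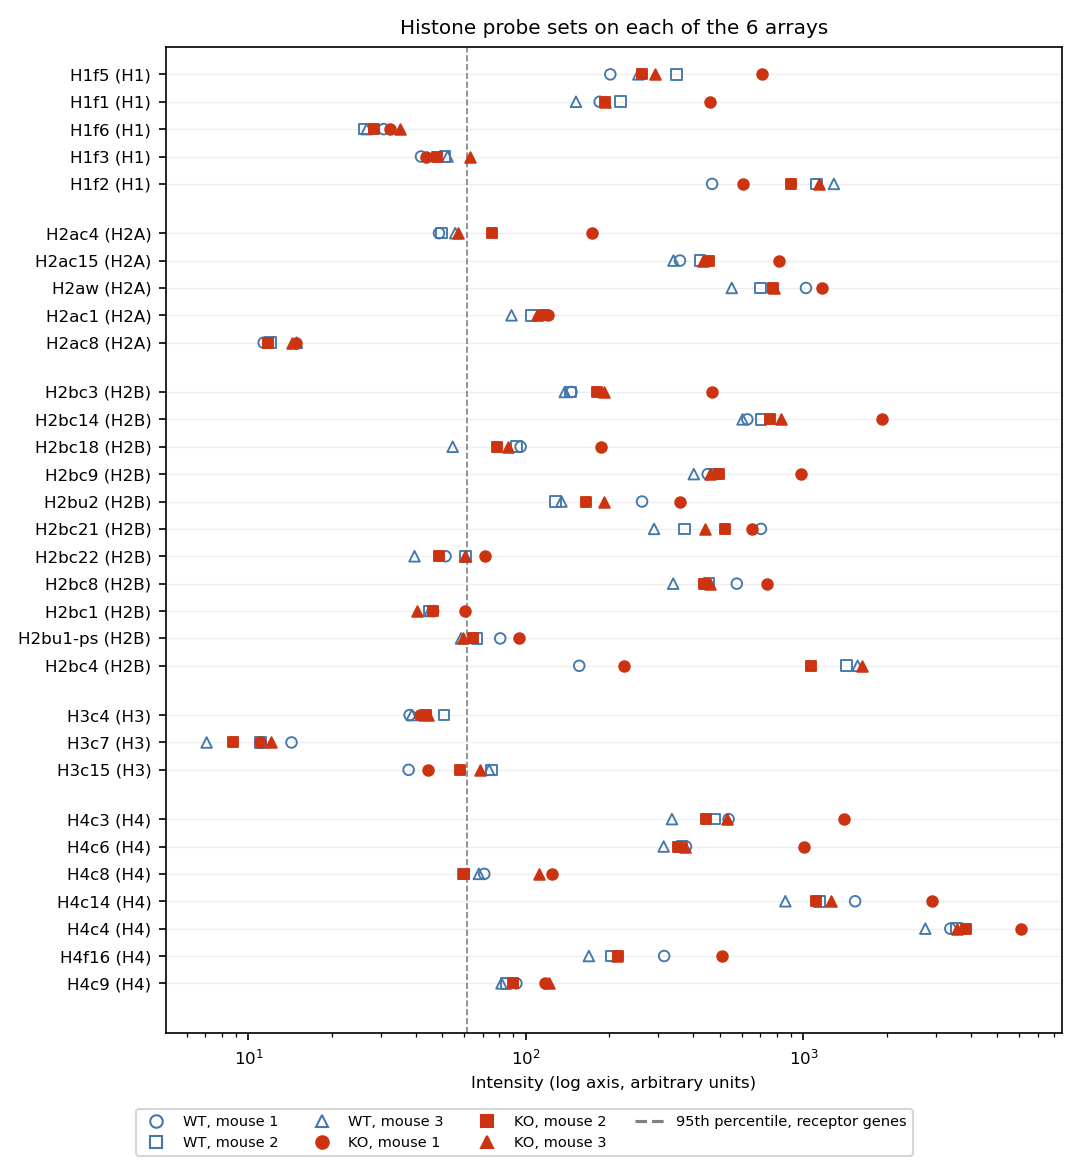
Intensity of each of the 31 histone probe sets (rows, grouped by type) on the 6 arrays, on a log axis in arbitrary units. Open blue symbols are WT and filled red symbols KO cultures, and the shape gives the mouse. The dashed line is the 95th percentile of receptor probe sets (61.5). The KO array of mouse 1 (filled circle) is the highest in 21 rows, and *H2bc4* and *H1f2* are low in both arrays of mouse 1. Levels of different rows are not comparable.

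The KO array of mouse 1 was the highest of the 6 for 21 of 31 members, against 19.1% of all probe sets, and it was the lowest for none. The WT array of mouse 3 was the lowest for 19 members, against 24.2%. At least a 2-fold difference within mouse 1 was reached by 9 members (29%), from 2.16-fold to 3.56-fold, against 0.518% of all probe sets, which are 112. These were *H1f5* and *H1f1*, *H2ac4* and *H2ac15*, *H2bc3*, *H2bc14* and *H2bc9*, and *H4c3* and *H4c6*, so that every type but H3 was among them. The WT value of *H2ac4* in mouse 1 lay under the receptor background, which compresses its fold, and the other 8 ran from 2.16-fold to 3.53-fold. The same 9 differed by −0.40 to 0.61 in mouse 2 and by 0.04 to 0.66 in mouse 3. A difference within 1 mouse rests on 2 arrays and has no replicate check.

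H1 members had a median difference of 0.20 (0.37, −0.19 and 0.27 in mice 1, 2 and 3), which was 0.0191 with array weights. *H1f5*, a linker histone typical of dividing cells, gave 201, 348 and 254 in WT and 712, 263 and 292 in KO arrays, in the order of mice 1, 2 and 3 as for every gene that follows. The KO array of mouse 1 was 3.53-fold over its WT array, while in mouse 2 the KO array was lower, so that the groups overlapped (log2 difference 0.54, SE 0.41, limma adjusted p = 0.78). Unless stated, SE and p of single genes are from the fit without the mouse as a block, so they include differences between mice. *H1f1*, another H1 subtype, followed with 184, 220 and 151 in WT and 460, 193 and 192 in KO arrays, and again only the KO array of mouse 1 stood above the rest. *H1f6*, the testis-specific subtype, and *H1f3* had a mean over all arrays below the receptor background. They differed by 0.20 (0.07, 0.12 and 0.39 in mice 1, 2 and 3) and 0.08 (0.05, −0.10 and 0.27).

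*H1f2* differed from these. Its WT intensities were 469, 1116 and 1287 and its KO intensities 604, 899 and 1141, which gave a mean difference of −0.04 (SE 0.43, limma adjusted p = 0.99). With the mouse as a block the SE was 0.15 (limma adjusted p = 0.92). Both arrays of mouse 1 were the lowest of their groups, and within mouse 1 KO was higher but in mice 2 and 3 it was lower.

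H2A members had a median difference of 0.28 (0.39, 0.15 and 0.31). *H2ac4* gave 48.6, 49.5 and 55.6 in WT and 173, 75.4 and 57.1 in KO arrays. All WT values lay under the receptor background, and the lowest KO value was only just above the highest WT value (log2 difference 0.83, SE 0.39, limma adjusted p = 0.71). *H2ac15* gave 359, 424 and 340 in WT and 814, 456 and 433 in KO arrays, a difference of 0.54 (SE 0.26, limma adjusted p = 0.71). Its KO arrays of mice 2 and 3 were close to the WT array of mouse 2. Both genes encode canonical H2A.

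*H2aw*, of the small Hist3 cluster on chromosome 11, had a smaller difference in mouse 1. It gave 1021, 700 and 552 in WT and 1162, 775 and 784 in KO arrays, and both arrays of mouse 1 were the highest of their group. KO exceeded WT in all 3 mice, by 0.19, 0.15 and 0.51. *H2ac1*, a testis H2A, was also higher in each mouse, by 0.07, 0.16 and 0.31, and *H2ac8*, below background, differed by 0.10 (0.39, −0.02 and −0.06).

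H2B members had a median difference of 0.33 (0.47, 0.04 and 0.46), which was 0.11 without the KO array of mouse 1. *H2bc14* gave 628, 702 and 603 in WT and 1913, 755 and 833 in KO arrays. The KO array of mouse 1 was 3.05-fold over its WT array and the other KO arrays were slightly above the highest WT array (log2 difference 0.73, SE 0.35, limma adjusted p = 0.71). *H2bc3* gave 146, 145 and 138 in WT and 468, 180 and 190 in KO arrays. Its WT arrays lay close together, and each KO array was above all of them (log2 difference 0.82, SE 0.36, limma adjusted p = 0.71). *H2bc9* gave 452, 479 and 403 in WT and 977, 495 and 462 in KO arrays, where the groups overlapped. *H2bc22* and *H2bc1*, the testis H2B, were below background, with mean differences of 0.25 (0.47, −0.32 and 0.61) and 0.09 (0.38, 0.04 and −0.15). The groups also overlapped for the remaining 3. *H2bc18* differed by 0.47 (0.97, −0.23 and 0.66), *H2bc8* by 0.25 (0.36, −0.06 and 0.44) and *H2bu1-ps* by 0.07 (0.23, −0.05 and 0.02).

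For *H2bc21* and *H2bu2* mouse 1 was high in both cultures, and its KO minus WT difference was not the largest of the 3 mice. *H2bc21* gave 703, 373 and 290 in WT and 653, 520 and 443 in KO arrays: both arrays of mouse 1 were the highest, the difference there was −0.11, and in mice 2 and 3 it was 0.48 and 0.61. *H2bu2* gave 262, 128 and 134 in WT and 359, 164 and 192 in KO arrays, a difference of 0.45, 0.36 and 0.51, and had the smallest blocked p of any member (limma, adjusted p = 0.29 with the mouse as a block). Without both arrays of mouse 1, *H2bc21*, *H2bu2* and *H2bc3* were the 3 members higher at an unadjusted p under 0.05. They are 9.68% of the members, the same share as the 9.77% of all probe sets. None passed after adjustment (smallest adjusted p of a member = 0.19), where 0.499% of all probe sets did. The median of the pDC markers in mice 2 and 3 was higher too, by 0.36 and 0.58, and its part in the values of *H2bc21* and *H2bu2* was not tested.

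*H2bc4* had the widest spread between mice of any member. It gave 156, 1428 and 1568 in WT and 225, 1069 and 1624 in KO arrays, and the mean difference was 0.06 (SE 1.11, limma adjusted p = 0.995). That SE holds the spread between mice. With the mouse as a block the SE was 0.18 (limma adjusted p = 0.90). The WT array of mouse 1 was 9.62-fold under the mean of the other WT arrays on the log scale, and its KO array was low as well.

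H3 members had a median difference of 0.02 (0.12, −0.33 and 0.20), and none of the 3 was above the receptor background. *H3c15* gave 37.8, 75.3 and 73.7 in WT and 44.3, 58.1 and 68.2 in KO arrays, low in both arrays of mouse 1. *H3c4* differed by 0.03 (0.12, −0.22 and 0.20) and *H3c7* by 0.02 (−0.38, −0.33 and 0.77). For H3, the single-symbol probe sets therefore give little about the level of the type, and the shared probe sets below carry more signal.

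H4 members had a median difference of 0.47 (0.85, 0.00 and 0.55), and all 7 were above the receptor background. Among the types this was the highest median. Without the KO array of mouse 1 it was 0.13, under 0.18 for H1 and 0.15 for H2A. That setting keeps the WT array of mouse 1 without its pair, so differences between mice enter it. Without both arrays of mouse 1 the H4 median was 0.25, again the highest, beside 0.23 for H2A and 0.08 for H1. Without dim probe sets it was 0.46, under 0.49 for H1. *H4c3* gave 537, 479 and 336 in WT and 1398, 444 and 529 in KO arrays, a 2.60-fold difference in mouse 1. *H4c6* gave 377, 365 and 313 in WT and 1008, 354 and 374 in KO arrays. In both genes the KO array of mouse 1 was alone above the rest, and the other KO arrays lay within the WT range.

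*H4c4* gave 3382, 3569 and 2749 in WT and 6094, 3851 and 3566 in KO arrays. KO was higher in all 3 mice, but the KO array of mouse 3 lay just under the WT array of mouse 2 (log2 difference 0.44, SE 0.23, limma adjusted p = 0.72). *H4c8* gave 70.8, 59.6 and 67.7 in WT and 125, 59.7 and 111 in KO arrays, so that mice 1 and 3 differed and mouse 2 did not. *H4c9* gave 92.4, 84.8 and 81.6 in WT and 117, 89.6 and 121 in KO arrays and had the smallest p of all members (log2 difference 0.33, SE 0.14, limma adjusted p = 0.70). *H4f16*, the member on chromosome 6, differed by 0.69, 0.08 and 0.34 in mice 1, 2 and 3. *H4c14* gave 1535, 1145 and 860 in WT and 2895, 1109 and 1260 in KO arrays. With the mouse as a block, 6 of the 7 H4 genes were higher at an unadjusted p under 0.05 in limma, all but *H4c6*. The counts were 3 of 5 for H2A, 3 of 11 for H2B and none for H1 and H3, against 7.46% of all probe sets. Whether the types differed from each other was not tested.

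**Figure D2:**
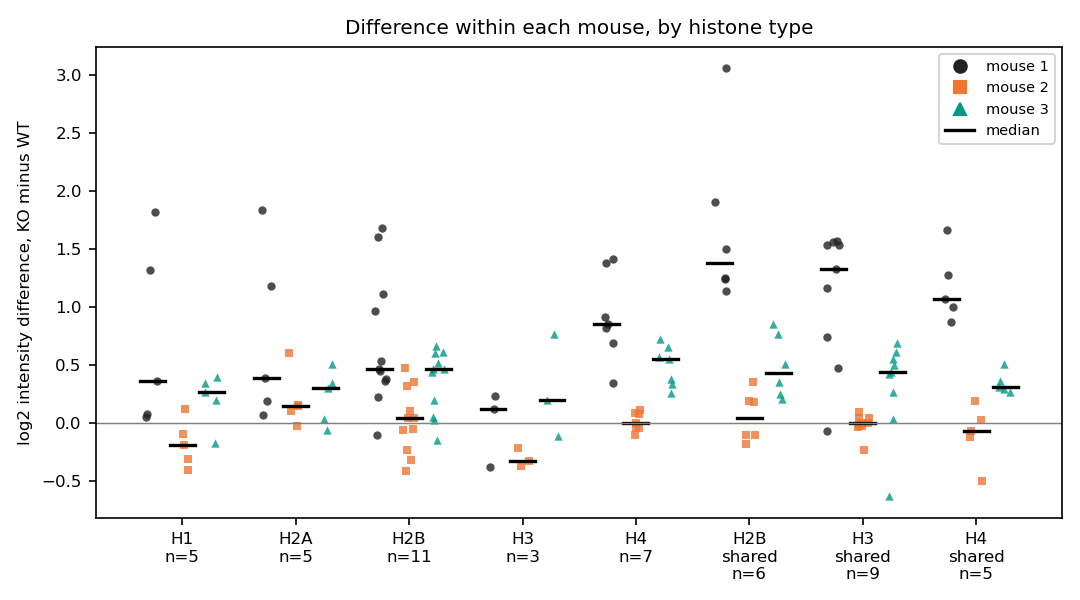
Log2 intensity difference, KO minus WT, within each mouse (circles, squares and triangles for mice 1, 2 and 3) for single-symbol probe sets of each type and for probe sets shared between genes of 1 type. Each point is 1 probe set and bars are medians. Medians in mouse 1 run from 0.12 (H3) to 0.85 (H4) and reach 1.38 for shared H2B, while those of mouse 2 lie near 0 or under it except H2A (0.15).

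The array covers most other histone genes by 22 shared probe sets, 20 of them within 1 type. They are no members, but they measure the same families and their probes match many genes at once. Their median difference was 0.50 (1.25, −0.03 and 0.39), and 16 of 22 reached 2-fold in mouse 1, against 0.518% of all single-symbol probe sets. The H2B sets were paired with 14 or 15 symbols each and the H3 sets with 12. Sets of 1 type thus share genes and are not separate observations. By type, those at 2-fold were 6 of 6 for H2B, 6 of 9 for H3 and 4 of 5 for H4. Medians in mouse 1 were 1.38, 1.33 and 1.07, so that H3, hardly measured by its own probe sets, did not stand below the others here. Only 1 shared probe set held H2A genes, together with H3 genes.

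The study's list of changed genes names *Hist1h2bk* and *Hist1h2bl*. That list was drawn from these arrays and is no independent evidence. Here their probe sets are shared by 15 and 14 H2B symbols. The first gave 253, 415 and 351 in WT and 2108, 473 and 598 in KO arrays, 8.32-fold in mouse 1 and higher in every mouse, with a mean difference of 1.34 (SE 0.56, limma adjusted p = 0.70). The second gave 287, 461 and 298 in WT and 1074, 587 and 538 in KO arrays, a mean difference of 1.04 (SE 0.31, limma adjusted p = 0.69). In both, all KO arrays lay above all WT arrays, with the KO array of mouse 1 far above the other KO arrays.

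A few members also differed between the mice without any treatment. Over all 31, the WT array of mouse 1 was higher than the mean of the other WT arrays by a median of 0.11, close to 0.07 for all probe sets. It was at least 2-fold under that mean for 2 of 31, *H2bc4* and *H1f2* (5.35% of all probe sets). It was at least 2-fold over it for 1 of 31, *H2bc21* (1.65%). These counts were near the shares of all probe sets. The genes that follow were picked by their values, and *H3c15* lay below the receptor background. *H2bc4* was lower by 3.27, *H1f2* by 1.36 and *H3c15* by 0.98, whereas *H2bc21*, *H2bu2* and *H2aw* were higher by 1.10, 1.00 and 0.72. The 9 members with at least a 2-fold difference in mouse 1 were at neither extreme. The WT array of mouse 1 enters both differences with opposite sign, so they are not independent. Across the WT arrays the first 3 genes thus ran with most of the neutrophil, stromal, macrophage and B lineage markers. The latter 3 ran with the pDC markers, whose WT median was 1.06 higher in mouse 1. The part of the cell mixture in these levels was not tested.

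**Figure D3:**
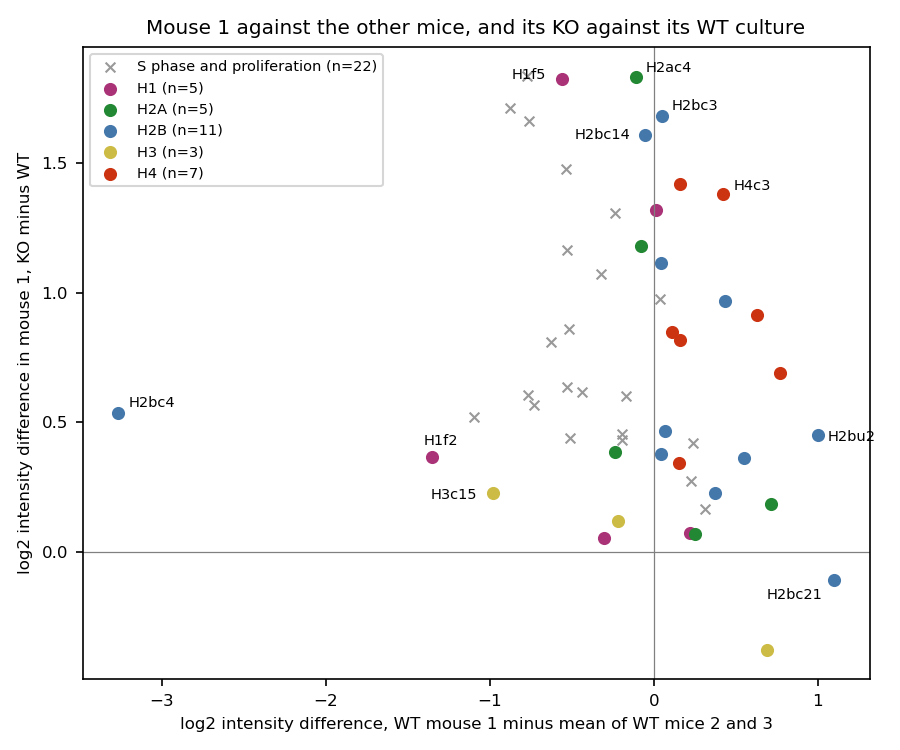
Each histone probe set (coloured by type) and each S phase or proliferation gene (crosses) by its log2 difference between the WT array of mouse 1 and the mean of WT arrays 2 and 3 (horizontal) and its log2 difference between KO and WT in mouse 1 (vertical). Members with at least 2-fold in mouse 1 (1 or more on the vertical axis) lie between −0.56 and 0.42 horizontally, while *H2bc4* (−3.27) and *H1f2* (−1.36) lie far to the left at small vertical values. Both axes use the WT array of mouse 1, with opposite sign, and are not independent.

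Genes of the cell cycle were set beside the histones. Of 22 listed S phase and proliferation genes, all had a probe set. Their median difference was 0.17 (0.63, −0.11 and −0.15). In mouse 1, 22 of 22 were higher and 7 reached 2-fold, against 49.8% and 0.518% of all probe sets. In mouse 3, where 27 of 31 histones were higher, only 7 of 22 of this list were, against 56.2% of all probe sets. The WT array of mouse 1 was also low for this list, by a median of 0.52 under the other WT arrays, which was not so for the histones (0.11 above). Against the mean of WT arrays 2 and 3, the KO array of mouse 1 was higher by a median of 0.96 for the histones and of 0.46 for the S phase genes. The part of cell cycling in the histone values was not tested.

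*Rrm2*, a subunit of the enzyme that makes deoxynucleotides, gave 58.4, 90.0 and 79.8 in WT and 162, 87.3 and 114 in KO arrays. *Cdc6*, which loads the replicative helicase, gave 40.6, 50.8 and 30.7 in WT and 79.7, 55.0 and 76.9 in KO arrays, and *Cdc45*, a part of that helicase, gave 83.7, 104 and 105 in WT and 176, 102 and 118 in KO arrays. *Cdc6* and *Rrm2* were the 2 of 22 with an unadjusted limma p under 0.05, both higher, against 5.14% of all probe sets. All 3 WT arrays of *Cdc6* lay under the receptor background, and neither gene passed after adjustment (limma, adjusted p = 0.69 and 0.70). *Mki67*, a marker of cycling cells that is named here after its values were seen, gave 106, 193 and 167 in WT and 334, 179 and 128 in KO arrays, so that the highest array was again that of mouse 1 but mouse 3 ran the other way.

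The lists for the machinery of histone expression had medians near 0, but single genes differed more within a mouse. Values ran from −0.35 to 0.48 for the transcription factors, −0.83 to 0.42 for processing and decay, and −0.48 to 1.16 for the chaperones. At an unadjusted limma p under 0.05 without the block, 5.14% of all probe sets were higher, 1.9% were lower, and the histone members also had 0. A count of 0 in such short lists therefore says little. Of 10 listed transcription factors of histone genes, 9 had a probe set, with a median of −0.04 and 0 at an unadjusted p under 0.05 in limma, blocked or not. *Npat*, the coactivator, gave 124, 109 and 86.7 in WT and 116, 102 and 121 in KO arrays. All 12 genes for 3′ end processing and decay of histone mRNA were measured, with a median of 0.08 and likewise 0 at that p by both fits. *Slbp* differed by 0.10. Histone chaperones, 17 of 18 measured, had a median of −0.03, again with none at that p by either fit. *Asf1b*, the chaperone of proliferating cells, stood out in mouse 1 (1.16), with a mean difference of 0.33.

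Replication-independent histone variants, 9 of 11 measured, had a median of 0.28 (0.34, 0.07 and 0.23). At an unadjusted limma p under 0.05, 1 of 9 was higher, against 5.14% of all probe sets. That was *H2afv*, an H2A.Z gene, at 531, 514 and 407 in WT and 692, 573 and 608 in KO arrays (log2 difference 0.37, limma adjusted p = 0.69). *H2afx*, whose mRNA is also made in S phase, gave 256, 304 and 226 in WT and 617, 318 and 310 in KO arrays, again with the KO array of mouse 1 far above the others. *Cenpa*, the H3 of centromeres, gave 121, 301 and 308 in WT and 338, 282 and 291 in KO arrays, so that its WT array of mouse 1 was low. Of 18 other genes in or near the Hist1 cluster, 17 had a probe set, 6 of these above the receptor background. Their median of 0.11 (−0.01, 0.19 and 0.07) was under that of the receptor probe sets. At an unadjusted limma p under 0.05, 2 of 17 were higher, against 5.14% of all probe sets, and both lay under the receptor background. With the mouse as a block 2 were higher and 1 was lower, against 7.46% and 5.99%.

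**Figure D4:**
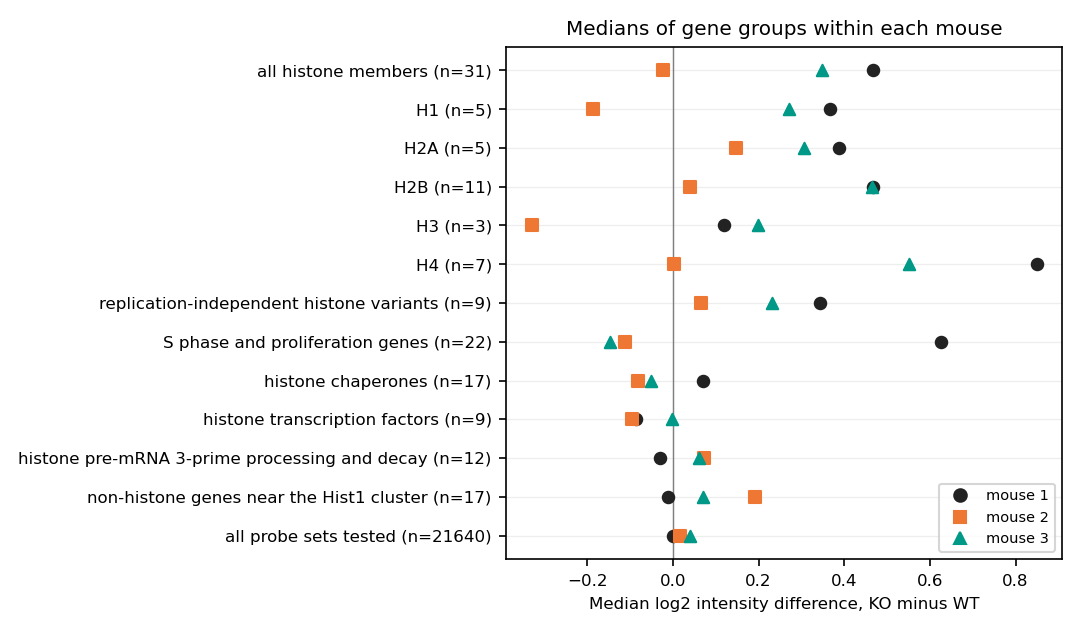
Median log2 intensity difference, KO minus WT, within each mouse for the histone members, each type, and lists of related genes (rows, with the number of probe sets). Each point is a median over the probe sets of a row in 1 mouse. In mouse 3 the histone median is 0.35 and that of the S phase genes −0.15, while in mouse 1 they are 0.47 and 0.63.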

How the data were processed

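The arrays were processed by the authors, who deposited linear intensities for 34760 probe sets (3.07 to 19106, array medians 69.0 to 72.9). Their background correction, normalization and summary are not described in the sources used here. Intensities were log2-transformed without further normalization. The platform table pairs 21640 probe sets with 1 symbol, 1321 with several and 11799 with none. KO (n = 3) was compared with WT (n = 3) over these 21640 by two-sided limma tests (lmFit, then eBayes; limma 3.58.1, R 4.3.3), adjusted by Benjamini-Hochberg at 0.05. This step was first tested on simulated data, which held no differences between mice and so do not show how it handles mouse 1. The number of arrays limits the precision.

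WT and KO cultures came from the same mouse. After the group mean was taken off, arrays of the same mouse correlated at Pearson's r of 0.81, 0.51 and 0.67 over all probe sets (mice 1, 2 and 3). Across mice 2 and 3, r was 0.50 (WT of mouse 2, KO of mouse 3) and 0.42 (WT of mouse 3, KO of mouse 2). Between mouse 1 and the others it ran from −0.72 to −0.54. The values thus mostly set mouse 1 apart and show little pairing for mouse 2. The mouse was used as a block in 1 alternative. The other alternatives were shared probe sets added, array weights, a trended robust fit, a further quantile normalization, median centring, dim probe sets floored at the 20th percentile or dropped, unnamed probe sets included, probe sets averaged by gene, and each array or mouse left out.

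The members, gene lists and tests were chosen with earlier results of these data known. Named genes were, per type, the 4 members with the smallest p and those with the highest and the lowest difference, the histone genes of the study's list, and up to 4 per other list by p. Other genes were added after their values were seen: the H2B genes beyond the rule, *H4c6*, *H4c14*, *H4f16*, *Slbp*, *Mki67*, *S100a8*, *S100a9*, *Mpo*, *Elane* and *Vpreb1*.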

Additional observations from a re-analysis of the deposited data

How the results depend on the processing

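Adjusted calls over all probe sets numbered 0 in every alternative except without both arrays of mouse 1, so that leaving out arrays gave 0 to 108, and 0 of these were histones. The 0 members higher at an unadjusted p under 0.05 became 12 with the mouse as a block, 1 with quantile normalization, 1 with array weights and 2 with the shared probe sets added, and 0 to 4 with arrays left out (4 without the KO array of mouse 2). The count of members lower at that p was 0 throughout. The H1 median moved to 0.49 without dim probe sets, where no H3 member was left, and the H3 median to 0.42 with shared probe sets added. The H2A median ran from 0.15 (without the KO array of mouse 1) to 0.52 (without the WT array of mouse 1). The H2B median ran from 0.11 to 0.48 and the H4 median from 0.13 to 0.73 with arrays left out, lowest without the KO array of mouse 1, and with array weights they were 0.17 and 0.29. The H1 median was 0.0939 with quantile normalization and 0.0191 with array weights.

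Single genes of small difference turned sign. With quantile normalization *H1f3* became −0.0030, *H3c4* −0.0513 and *H3c7* −0.0253. With centring *H3c4* became −0.0229 and *H3c7* −0.0357, and with array weights *H2bc4* became −0.44, *H3c4* −0.11 and *H3c7* −0.0436. With arrays or mice left out, differences ran over *H1f2* −0.49 to 0.24, *H1f3* −0.0787 to 0.19, *H1f5* −0.10 to 1.01, *H2ac8* −0.0427 to 0.22, *H2bc4* −1.03 to 0.90, *H3c15* −0.41 to 0.0855, *H3c4* −0.0503 to 0.17 and *H3c7* −0.35 to 0.25.
The causes were not tested. Intensities near the receptor background compress differences, and 8 of 31 members lay there, all 3 of H3 among them.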
